A study of Mus musculus with 36 samples.

Results

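In quadriceps muscle of the sarcoglycan-deficient strains BSG and GSG, 8-week-old mice were compared with 6-week-old mice on 4 of the 36 arrays of a time course from 1 to 20 weeks. The 4 arrays, 2 per strain, are all those with RNA of an 8-week-old mouse in Cy5 and RNA of a 6-week-old mouse in Cy3. BSG mice lack beta-sarcoglycan and GSG mice lack gamma-sarcoglycan. Both are subunits of a complex that ties the muscle fibre membrane to the matrix, and loss of either gives a muscular dystrophy. Each array set 1 mouse of 8 weeks against 1 mouse of 6 weeks, so that each age is represented by 2 mice per strain, and the treatment of the mice did not differ otherwise as far as the labels state. Both strains are dystrophic at both ages, and healthy mice are not analysed here, so that a difference between the ages cannot be set against normal growth. Littermates were used for most ages, and by the study's account the mice of a strain and age were killed at the same time of day, whereas that time varied between ages and strains, so that age and time of day cannot be told apart. The sex of the mice is not in the labels.

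The values are log2 ratios of 8 over 6 weeks, so that 1 stands for a doubling at 8 weeks, averaged over the 2 spots of an oligonucleotide. The direction (Cy5 over Cy3) and the base of the logarithm are not stated in the sources and are taken from the design as likely. Each strain is compared only with itself, so the arrays show neither the loss of the targeted gene nor whether markers of muscle are present. *Sgcb*, which encodes beta-sarcoglycan, had log2 ratios of 0.40 and 0.17 on the BSG arrays and 0.12 and 0.21 on the GSG arrays. The strains' mean was tested against 0 with limma over 8129 oligonucleotides, with a spread per oligonucleotide shared by all 36 arrays, and a difference was called at a Benjamini-Hochberg adjusted p under 0.05. In RNA of a whole muscle, fewer cells of a type and less RNA per cell cannot be told apart.

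The 4 arrays differed in quality. The correlation of duplicate spots over oligonucleotides was 0.245 and 0.583 on BSG arrays 1 and 2, and 0.252 and 0.645 on GSG arrays 1 and 2, against a range of -0.0963 to 0.765 over all 36 arrays. Both first arrays were therefore the noisier ones. The named calls and the numbers of calls are given below with and without them, but the counts of the gene lists only with them. All 4 arrays carry 8 weeks in Cy5, so a dye effect of an oligonucleotide is contained in its mean. Because the 9 log ratios of a closed loop sum to 0 where no dye effect exists, the mean over a loop measures that effect, and the closed-loop estimate is the value of the array minus the mean of its loop. In 24 oligonucleotides the mean over all 36 arrays was over 0.5 in size. Closed-loop values are therefore given for the called genes and the lists, and for other genes where stated.

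Skeletal muscle holds its own circadian clock, in which CLOCK and BMAL1 (the product of *Arntl*) bind E-box sequences and switch on the *Per* and *Cry* genes, whose products then repress them. Hormones reach the same genes, since glucocorticoids, which rise and fall with the day, induce *Per1*, *Tsc22d3* and *Klf9* in many tissues, and stress and exercise induce immediate early genes such as the *Gadd45* family. *Per1*, *Tsc22d3* and *Gadd45g* of these groups stood among the genes with higher values at 8 weeks. The promoters of *Per1* and *Gadd45g* are shown for that reason, and that of *Rsrp1*, which is in none of these groups, because it had the highest mean.

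The sequences are from RefSeq on GRCm38.p6 and run 5′ to 3′ from 250 bases before to 50 after a transcription start. Capitals mark the E-box CACGTG and the letters TGACG, the core of the cAMP response element, both searched on both strands. *Gadd45g* lies at chr13:51846425-51846724 on the plus strand, *Rsrp1* at chr4:134923375-134923674 on the plus strand, and *Per1* has a start at chr11:69098699-69098998 and a later one at chr11:69099902-69100201, both on the plus strand.
Gadd45g: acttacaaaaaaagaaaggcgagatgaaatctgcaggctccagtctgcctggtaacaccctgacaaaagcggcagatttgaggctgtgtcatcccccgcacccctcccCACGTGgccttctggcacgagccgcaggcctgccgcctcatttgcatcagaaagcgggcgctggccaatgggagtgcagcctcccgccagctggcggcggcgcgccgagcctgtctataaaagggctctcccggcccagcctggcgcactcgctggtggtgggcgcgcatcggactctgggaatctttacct
Rsrp1: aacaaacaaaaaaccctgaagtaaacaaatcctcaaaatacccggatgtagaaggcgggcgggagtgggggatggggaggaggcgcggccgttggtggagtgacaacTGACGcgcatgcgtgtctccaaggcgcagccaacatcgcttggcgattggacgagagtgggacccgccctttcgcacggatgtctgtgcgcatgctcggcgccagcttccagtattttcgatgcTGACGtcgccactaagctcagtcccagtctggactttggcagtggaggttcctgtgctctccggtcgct
Per1, the first start: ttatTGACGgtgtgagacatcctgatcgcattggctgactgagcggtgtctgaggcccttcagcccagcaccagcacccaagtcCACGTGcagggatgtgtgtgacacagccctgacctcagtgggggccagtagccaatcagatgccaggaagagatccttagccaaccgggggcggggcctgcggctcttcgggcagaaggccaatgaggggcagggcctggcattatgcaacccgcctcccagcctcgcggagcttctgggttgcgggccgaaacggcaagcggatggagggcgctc
Per1, the second start: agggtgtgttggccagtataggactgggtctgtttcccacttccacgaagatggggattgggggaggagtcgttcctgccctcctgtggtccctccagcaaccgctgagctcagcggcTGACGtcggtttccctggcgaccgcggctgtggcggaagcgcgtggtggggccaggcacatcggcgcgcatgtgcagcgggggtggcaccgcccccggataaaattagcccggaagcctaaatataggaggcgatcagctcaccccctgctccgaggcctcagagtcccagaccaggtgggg

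The E-box CACGTG occurred once in the *Gadd45g* promoter, at position -142 from the start, and once before the first *Per1* start, at -166. In the RefSeq set, 2349 of 32851 promoters of this length (7.15%) hold these letters. TGACG occurred at -246 and -132 before the respective *Per1* starts and at 2 places before *Rsrp1*, and 20.8% of all promoters hold it. The full element TGACGTCA (1.79% of promoters) and the glucocorticoid response element, an inverted repeat of ACA with G before it and 3 free bases in the middle (0.475%), had 0 matches in these 4 windows. Of the other letters searched, AGGTCA (16.3% of promoters) matched at -137 of the first *Per1* start and TATAAA (13.6%) at -27 of *Gadd45g*, whereas TTANNTAA (6.0%) and a serum response element (0.0639%) had 0 matches. *Tsc22d3*, with 3 starts on chromosome X, held no E-box and had 1 match of TGACG. A match describes the letters in a window and nothing more, and of 18 genes looked up 12 had a promoter in the table.

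In the mean of the 4 arrays, 12 of 8129 oligonucleotides differed between 8 and 6 weeks (0.148%), 6 of them higher and 6 lower at 8 weeks. The 6 higher ones all carry a gene symbol, namely *Rsrp1*, *Gadd45g*, *Per1*, *Tcap*, *Tsc22d3* and *Alx4*. Of the lower ones, *Dsg1a* and *Scd1* have a symbol and 4 oligonucleotides have none. The 8 named genes changed by between 1.51-fold and 3.53-fold in the mean. At an unadjusted p under 0.05 there were 1428 oligonucleotides (17.6%), 823 higher and 605 lower. Fitted on the 4 arrays alone, with no spread taken from the other 32, 0 passed (limma, smallest adjusted p = 0.0661) and 1245 had an unadjusted p under 0.05. In the closed-loop model with a dye term, 6 oligonucleotides passed (0.0738%), 5 higher and 1 lower, all of them among the 12, namely *Rsrp1*, *Gadd45g*, *Per1*, *Tsc22d3*, *Alx4* and *Dsg1a*. Without the dye term 2 passed (0.0246%), *Per1* and *Rsrp1*, and 435 (5.35%) had an unadjusted p under 0.05.

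*Gadd45g*, a stress-inducible gene of growth arrest and DNA damage signalling, had log2 ratios of 1.68 and 1.63 on the BSG arrays and 1.15 and 0.95 on the GSG arrays. It was higher at 8 weeks on 4 of 4 arrays, the GSG values were below the BSG values, and the mean of 1.36 ± 0.16 (standard error, n = 4 arrays) corresponds to a 2.56-fold higher level (limma, adjusted p = 8.76e-05). Its closed-loop estimate of 1.10 passed as well (limma, adjusted p = 0.00284 with a dye term). *Rsrp1*, which encodes an arginine- and serine-rich protein, had the highest mean of the 12, with 2.06 and 1.75 in BSG and 2.21 and 1.27 in GSG. The strains overlapped, the mean was 1.82 ± 0.28 (3.53-fold, limma, adjusted p = 0.00196), and the closed-loop estimate was 1.65 (limma, adjusted p = 0.00321 with a dye term).

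*Per1*, a repressor within the clock loop, had 1.77 and 1.63 in BSG and 1.37 and -0.01 in GSG. It was higher on 3 arrays, while GSG array 2 showed no difference between its mice. The mean was 1.19 ± 0.19 (2.28-fold, limma, adjusted p = 0.00196) and the closed-loop estimate 1.14 (limma, adjusted p = 0.00284 with a dye term). *Tsc22d3*, the glucocorticoid-induced leucine zipper gene, followed the same order of arrays, with 1.78 and 0.98 in BSG and 0.94 and 0.19 in GSG. The mean of *Tsc22d3* was 0.97 ± 0.16 (limma, adjusted p = 0.00508) and its closed-loop estimate 0.83 (limma, adjusted p = 0.0207 with a dye term).

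*Alx4*, a homeobox gene of limb and skull development, had 1.00 and 0.67 in BSG and 0.86 and 0.00 in GSG, and again GSG array 2 was the low one. Its mean was 0.64 ± 0.12 (limma, adjusted p = 0.017), with a closed-loop estimate of 0.60 (limma, adjusted p = 0.022 with a dye term). *Tcap*, which encodes telethonin of the Z-disc, had 1.45 and 0.83 in BSG and 1.01 and 1.20 in GSG. All 4 arrays were high and the strains overlapped, with a mean of 1.12 ± 0.19 (2.18-fold, limma, adjusted p = 0.00625). The mean of *Tcap* over all 36 arrays was 0.36, its closed-loop estimate was 0.76 and did not pass (limma, adjusted p = 0.182 with a dye term).

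The duplicate spots of these 6 genes differed by at most 0.27 on any of the 4 arrays. The same did not hold for the lower genes. *Dsg1a*, a desmosomal cadherin of the epidermis, had -1.15 and -2.06 in BSG and -0.08 and -0.33 in GSG, and on BSG array 2 its spots were -4.14 and 0.02. The mean of *Dsg1a* was -0.91 ± 0.13 (limma, adjusted p = 0.00171), and its closed-loop estimate -0.78 (limma, adjusted p = 0.0173 with a dye term). It was -1.36 with first spots alone and -0.45 with second spots alone, and passed in neither (limma, adjusted p = 0.0928 and 0.202). *Scd1*, the desaturase that makes monounsaturated fatty acids, had -1.43 and -0.44 in BSG and -0.23 and -0.29 in GSG. BSG array 1 stood apart from the others in *Scd1*, and there its spots were -2.53 and -0.33. The mean of *Scd1* was -0.60 ± 0.11 (limma, adjusted p = 0.0104), and its closed-loop estimate of -0.43 did not pass (limma, adjusted p = 0.187 with a dye term). Of the unnamed oligonucleotides, LGTCmuOLIs2_1725 had a mean of -2.39 and LGTCmuOLIs2_1383 one of -1.95, but their means over all 36 arrays were -2.02 and -2.23.

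**Figure D1:**
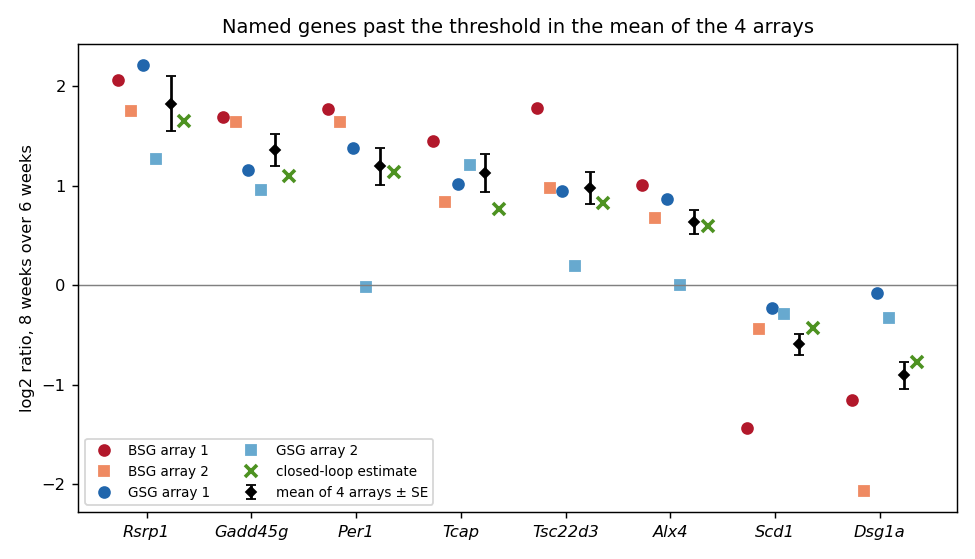
Log2 ratio of 8 over 6 weeks (y axis) on each of the 4 arrays for the 8 named genes that passed in the mean of the 4 arrays (x axis), with the mean ± standard error (diamond) and the closed-loop estimate (cross). Of the 6 higher genes *Per1* was not above 0 on 4 of 4 arrays, and GSG array 2 was the lowest array of *Rsrp1*, *Gadd45g*, *Per1*, *Tsc22d3* and *Alx4*, with 1.27, 0.95, -0.01, 0.19 and 0.00.

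Leaving out both first arrays leaves a lone array per strain. In that fit *Rsrp1* (1.51), *Per1* (0.81), *Tcap* (1.02), *Tsc22d3* (0.58), *Alx4* (0.34) and *Scd1* (-0.36) did not pass. *Dsg1a* (-1.20) passed and *Gadd45g* (1.30) passed narrowly. BSG array 2 is then the only BSG array, and the spots of *Dsg1a* there were -4.14 and 0.02. *Gadd45g* did not pass when every array with a duplicate-spot correlation under 0.3 was left out. The 8 named genes all kept their direction under each of the 20 alternative settings. The lowest and highest values of *Per1* were 0.81 and 1.54, those of *Gadd45g* 1.10 and 1.41, and those of *Rsrp1* 1.51 and 2.06.

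The leading genes were chosen by their mean on these 4 arrays. Their places among all 36 arrays follow in part from that choice and are given as description only. Among the 36 arrays, ordered from the highest log ratio, the 4 arrays of 8 over 6 weeks took places 1, 2, 4 and 6 for *Gadd45g* and places 2, 4, 1 and 5 for *Rsrp1*, in the order BSG 1, BSG 2, GSG 1 and GSG 2. For *Per1* they took places 1, 2, 3 and 17, and the other 32 arrays ranged from -1.26 to 1.11. For *Tsc22d3* they took places 1, 2, 3 and 18, with the other arrays between -0.76 and 0.72. *Tcap* took places 2, 8, 5 and 3, with a highest value of 1.52 among the other arrays.

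**Figure D2:**
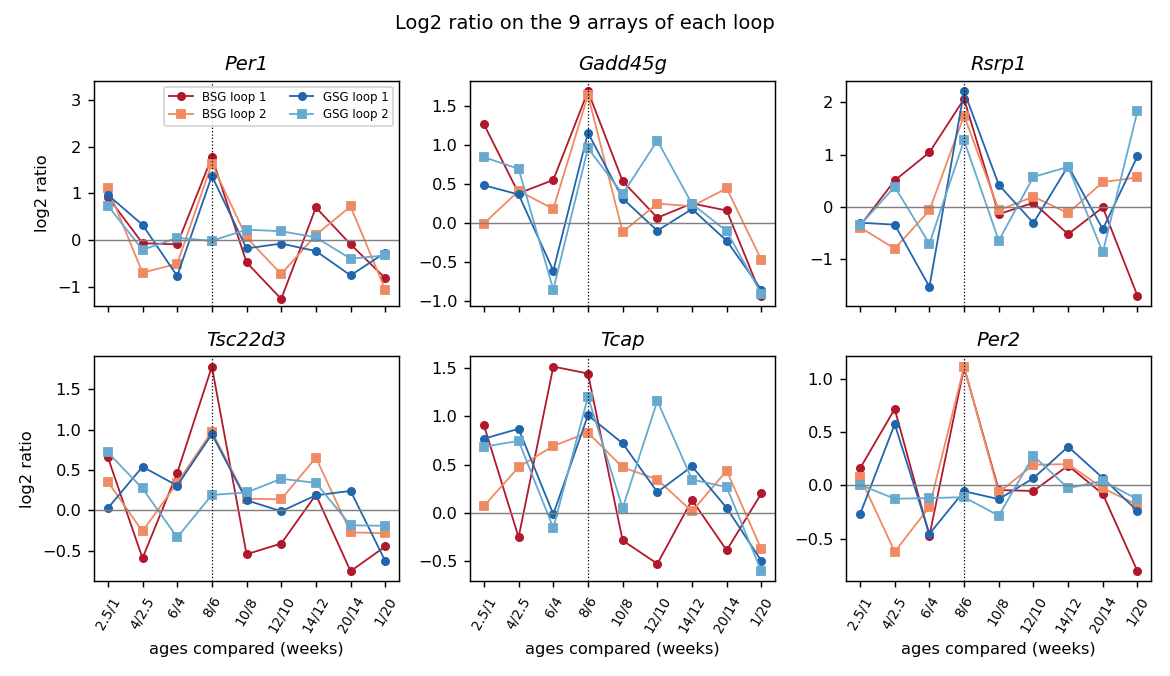
Log2 ratio (y axis) of 6 genes on the 9 arrays of each of the 4 loops (lines), in the order of the ages compared (x axis, weeks in Cy5 over weeks in Cy3), with a dotted line at 8 over 6 weeks. *Per1* reached 1.77, 1.63 and 1.37 there on 3 arrays and -0.01 on GSG array 2, and *Per2* reached 1.11 and 1.12 in BSG alone, with -0.05 and -0.11 in GSG.

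The neighbouring steps share mice with these arrays, 6 over 4 weeks the 6-week-old mouse and 10 over 8 weeks the 8-week-old one. *Per1* had -0.09, -0.50, -0.77 and 0.05 for 6 over 4 weeks, in the order given above. For 10 over 8 weeks, *Per1* had -0.47, 0.06, -0.18 and 0.22. On the 3 arrays where *Per1* was high at 8 over 6 weeks, the next step thus held no drop of the same size. *Gadd45g* had 0.55, 0.18, -0.62 and -0.86 for 6 over 4 weeks and 0.53, -0.12, 0.31 and 0.37 for 10 over 8 weeks. *Rsrp1* had 1.04, -0.07, -1.52 and -0.70 for 6 over 4 weeks, the GSG values being low and that of BSG array 1 high, and -0.14, -0.06, 0.42 and -0.64 for 10 over 8 weeks.

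Of the circadian clock genes, 19 were measured, 1 rose in the mean of the 4 arrays (*Per1*) and 0 fell. At an unadjusted p under 0.05, 8 of the 19 (42.1%) had higher and 0 lower values, against 10.1% higher and 7.44% lower among all oligonucleotides. In the closed-loop model the same count was 5 higher and 0 lower (26.3%), against 2.83% and 2.52%. With the medians of groups of spots removed, as described below for BSG, it was 6 higher and 3 lower (*Arntl*, *Cry1* and *Npas2*). Among all oligonucleotides 8.24% were then higher and 7.74% lower. With the closed loop and a dye term besides, it was 6 higher and 0 lower (31.6%, against 6.04%). The list's median was 0.08 in the mean of the 4 arrays and 0.20 in the closed-loop estimate, beside 0.01 and 0.01 over all oligonucleotides.

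*Nr1d2*, the REV-ERB beta repressor, had 0.57 and 0.75 in BSG and 0.98 and 0.36 in GSG, higher on 4 of 4 arrays with overlapping strains, and a mean of 0.67 that did not pass (limma, adjusted p = 0.128). *Bhlhe40*, which encodes the repressor DEC1, had 0.70 and 0.79 in BSG and 0.71 and 0.22 in GSG (mean 0.61, limma, adjusted p = 0.115). *Dbp*, an output gene of the clock that binds D-boxes, had 0.98 and 0.61 in BSG and 0.36 and 0.40 in GSG, with both BSG values above both GSG values (mean 0.59, limma, adjusted p = 0.0985). The closed-loop estimates of *Nr1d2*, *Bhlhe40* and *Dbp* were 0.57, 0.40 and 0.40. *Rora*, an activator of *Arntl*, had a mean of 0.39, *Nfil3*, a repressor at D-boxes, one of 0.36 (its other oligonucleotide -0.09), and *Clock* one of 0.29. *Arntl*, the partner of *Clock*, was below 0 on 4 of 4 arrays, with -0.19 and -0.43 in BSG and -0.09 and -0.57 in GSG, but its mean of -0.32 did not pass at an unadjusted p of 0.068 (limma).

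**Figure D3:**
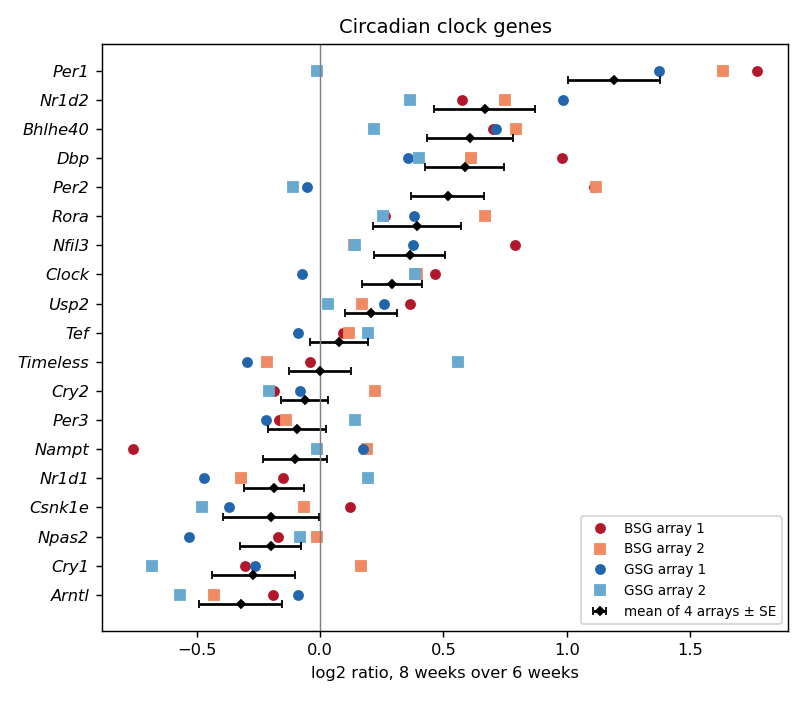
Log2 ratio of 8 over 6 weeks (x axis) on each of the 4 arrays for the 19 clock genes measured (y axis, ordered by the mean), with the mean ± standard error below the points. *Per1* alone passed in the mean of the 4 arrays. On 4 of 4 arrays 6 genes were above 0 (*Nr1d2*, *Bhlhe40*, *Dbp*, *Rora*, *Nfil3* and *Usp2*) and 2 below 0 (*Arntl* and *Npas2*).

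*Per2*, a repressor like *Per1*, had 1.11 and 1.12 in BSG but -0.05 and -0.11 in GSG. In BSG alone *Per2* rose by 1.12 ± 0.21 (limma, adjusted p = 0.0104), and it passed there in the closed-loop model with a dye term (limma, adjusted p = 0.0148). The difference between the strains had an unadjusted p of 0.00045 and did not pass over all oligonucleotides (limma, adjusted p = 0.183).

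Of the genes that glucocorticoids, fasting or atrophy induce, 21 were measured, of which 2 rose (*Tsc22d3* and *Per1*, the latter a clock gene too) and 0 fell. At an unadjusted p under 0.05, 6 were higher and 1 lower (33.3%, against 17.6% of all oligonucleotides), and in the closed-loop model 5 higher and 0 lower (23.8%, against 5.35%). *Klf9*, a Krüppel-like factor that glucocorticoids induce, had 1.31 and 1.09 in BSG and 0.44 and 0.26 in GSG, the BSG values lying above the GSG values (mean 0.77, limma, adjusted p = 0.171). *Bnip3*, a gene of mitophagy, lay between 0.47 and 0.69 on the 4 arrays (mean 0.56, limma, adjusted p = 0.127). *Sgk1*, the serum- and glucocorticoid-regulated kinase, had a mean of 0.47, with values from 0.21 to 0.75. Other targets did not share this: *Fkbp5*, a co-chaperone of the glucocorticoid receptor, was below 0 on 4 of 4 arrays, with a mean of -0.26 (limma, adjusted p = 0.273). *Klf15* had 1.98 on GSG array 1, but 0.01, -0.08 and -0.09 on the others.

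Of the immediate early and stress kinase genes, 30 were measured, 1 rose (*Gadd45g*) and 0 fell. At an unadjusted p under 0.05, 12 were higher and 2 lower (46.7%, against 17.6% of all oligonucleotides), and in the closed-loop model 3 higher and 0 lower (10.0%, against 5.35%). *Gadd45a*, a paralog of *Gadd45g*, had 0.88 and 1.18 in BSG and 0.27 and 0.79 in GSG (mean 0.78, limma, adjusted p = 0.111). *Gadd45b*, the other paralog, had 0.74 and 0.62 in BSG and -0.10 and 0.43 in GSG (mean 0.42, limma, adjusted p = 0.166). All 3 paralogs had both BSG values above 0.6 and their lowest value in GSG. *Ccn2*, a matricellular growth factor gene, had 1.43 and 0.97 in BSG and 1.73 and 0.02 in GSG, low on GSG array 2 as *Per1* was (mean 1.03, limma, adjusted p = 0.113). *Btg2*, an antiproliferative gene, lay between 0.34 and 1.18. *Egr1*, the classical immediate early transcription factor, was below 0 on 4 of 4 arrays, with a mean of -0.38 (limma, adjusted p = 0.154).

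Genes of the contractile apparatus had positive medians that shrank in the closed-loop estimate. Of 22 Z-disc and sarcomere genes, 1 rose (*Tcap*) and 0 fell. At an unadjusted p under 0.05, 10 were higher and 0 lower (45.5%, against 17.6% of all oligonucleotides). In the closed-loop model 1 was higher and 0 lower (4.55%, against 5.35%). With the medians of groups of spots removed, as described below for BSG, 7 were higher and 0 lower. Among all oligonucleotides 8.24% were then higher and 7.74% lower. With the closed loop and a dye term besides, 4 were higher and 0 lower (18.2%, against 6.04%). The median of the 22 genes went from 0.43 in the mean of the 4 arrays to 0.22 in the closed-loop estimate. In the mean of all 36 arrays it was 0.28. *Neb*, which encodes nebulin of the thin filament, had 0.87 and 0.35 in BSG and 0.82 and 0.83 in GSG (mean 0.72, limma, adjusted p = 0.118), whereas 3 other oligonucleotides of *Neb* had means of 0.35, 0.04 and -0.06. *Ldb3*, a Z-disc adaptor gene, had 0.53 and 0.08 in BSG and 1.47 and 1.20 in GSG (mean 0.82, limma, adjusted p = 0.173). *Tmod4*, which encodes the tropomodulin of fast fibres, had 1.00 and 0.04 in BSG and 0.28 and 0.86 in GSG.

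Positive medians also shrank in other lists. Of 34 genes of the respiratory chain and citric acid cycle, 0 were called, with a median of 0.41 that went to 0.14. At an unadjusted p under 0.05, 15 were higher and 1 lower (47.1%, against 17.6% of all oligonucleotides). In the closed-loop model 0 were at that p, against 5.35% of all oligonucleotides. Of 41 ribosomal protein genes, 0 were called, 7 were higher and 0 lower at an unadjusted p under 0.05 (17.1%, against 17.6% of all oligonucleotides), and 0 in the closed-loop model, with medians of 0.27 and -0.06. The medians of fast fibre genes were 0.30 and -0.05 over 11 members, and those of slow fibre genes 0.39 and 0.22 over 12 members. In the ribosomal protein and fast fibre lists the sign of the median thus depended on whether the mean of the loop was removed.

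**Figure D4:**
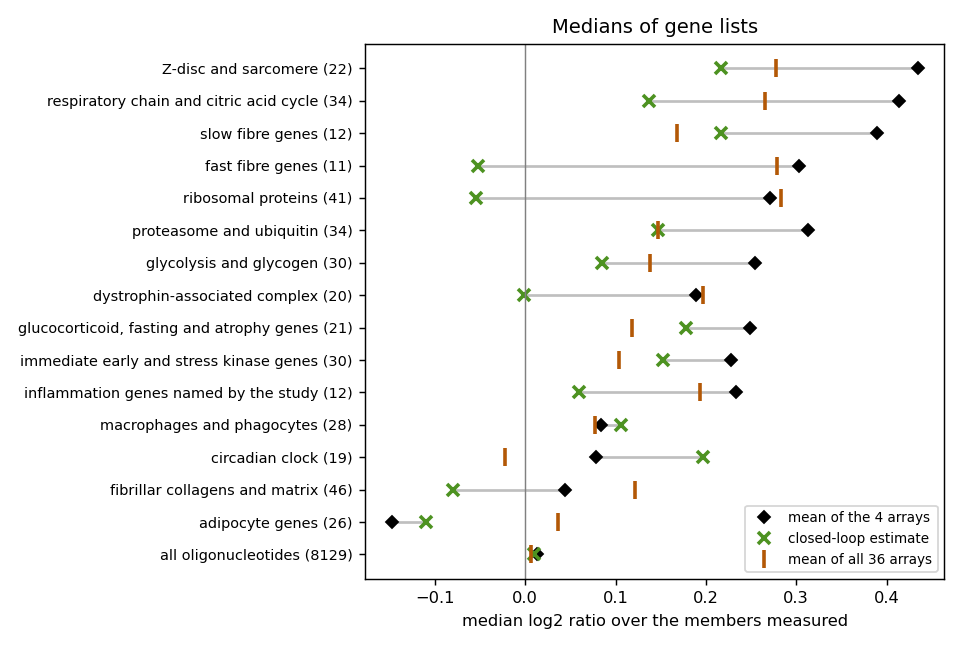
Median log2 ratio (x axis) over the measured members of 15 gene lists and over all oligonucleotides (y axis, number of members in brackets), in the mean of the 4 arrays, in the closed-loop estimate and in the mean of all 36 arrays. The ribosomal protein median moved from 0.27 to -0.06, and the circadian clock median from 0.08 to 0.20.

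Among single genes of muscle, *Mef2c*, a transcription factor of muscle differentiation, had 0.46 and 0.37 in BSG and 0.56 and 0.28 in GSG, a narrow range above 0, and a mean of 0.42 (limma, adjusted p = 0.178) that was 0.50 in the closed-loop estimate. *Ube2b*, a ubiquitin-conjugating enzyme gene, had 0.88 and 0.74 in BSG and 1.22 and 1.07 in GSG (mean 0.98 ± 0.34, limma, adjusted p = 0.171). *Il15*, a cytokine gene that muscle fibres express, had 0.52 and 1.26 in BSG and 0.27 and 0.66 in GSG (mean 0.68, limma, adjusted p = 0.126), and its other oligonucleotide had a mean of 0.10.

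Of 26 adipocyte genes measured, 1 fell (*Scd1*) and 0 rose, and 4 were lower and 0 higher at an unadjusted p under 0.05 (15.4%, against 17.6% of all oligonucleotides). In the closed-loop model 3 were lower and 0 higher (11.5%, against 5.35%). With the medians of groups of spots removed 3 were lower and 1 higher, beside 7.74% lower and 8.24% higher among all oligonucleotides. The median was -0.15, and -0.11 in the closed-loop estimate. *Cidea*, a lipid droplet gene of brown fat, was below 0 on 4 of 4 arrays, with -1.26 and -0.65 in BSG and -0.77 and -1.32 in GSG, with a standard error of 0.48 for the mean and a closed-loop estimate of -1.04 (limma, adjusted p = 0.284 for the mean). *Cidec*, another lipid droplet gene, had a mean of -0.27, and *Pck1*, of glycerol and glucose synthesis, one of -0.29.

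Several genes came close to the threshold with the same sign on 4 of 4 arrays. *Pcsk5*, a proprotein convertase, had -0.54 and -0.39 in BSG and -0.32 and -0.32 in GSG (mean -0.39 ± 0.08, limma, adjusted p = 0.0514). *Vamp1*, a vesicle SNARE, had 0.84 and 0.16 in BSG and 1.17 and 0.79 in GSG (mean 0.74, limma, adjusted p = 0.0534), and its other oligonucleotide had a mean of -0.04. *Arc*, an activity-regulated gene best known from neurons, had 1.46 and 0.30 in BSG and 0.57 and 1.09 in GSG (mean 0.86, limma, adjusted p = 0.055), and its spots on BSG array 1 were 2.57 and 0.36. The mean over all 36 arrays mattered for such genes. It was 0.53 in *Arc*, whose closed-loop estimate was 0.33. *Jmjd6*, a dioxygenase, lay within -0.66 and -0.56, with a mean over 36 arrays of -0.36 and a closed-loop estimate of -0.25. *Galnt4*, which starts O-glycans, had a mean of -0.58 but a closed-loop estimate of -0.02. Of all oligonucleotides, 2120 (26.1%) had the same sign on 4 of 4 arrays, 1187 above and 933 below 0.

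Shown apart, BSG had 54 called oligonucleotides (0.664%), 37 higher and 17 lower at 8 weeks, of which 11 were also among the 12 of both strains. GSG had 0 of 8129 (limma, smallest adjusted p = 0.0643), with 740 (9.1%) at an unadjusted p under 0.05, and the closed-loop model gave 0 with and without a dye term. The difference between the strains had 0 calls too (limma, smallest adjusted p = 0.0527), with 498 (6.13%) at an unadjusted p under 0.05. A larger number of calls in BSG is thus not shown to be a difference between the strains. Of the 54 BSG calls, 48 were larger in size on BSG array 1 than on BSG array 2, and 29 had a GSG mean of the same sign. BSG array 1 had the wider spread over all oligonucleotides (standard deviation 0.442, against 0.283 on BSG array 2). The same shares over all oligonucleotides were not counted, so neither number is read as a result about the calls.

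Many BSG calls shared a place in the numbering of the spots. The spots are numbered in blocks of 342, and spots that share a place in every 18 numbers of a block form groups of 19. On BSG array 1 the medians of these groups lay between -1.54 and 3.43, with 86 of 864 over 0.5 in size, against 0 of 864 on BSG array 2, 30 on GSG array 1 and 5 on GSG array 2. At place 13 of 18 in the first block of each of 5 sheets, 95 oligonucleotides had a median of 1.25 on BSG array 1, which came from their second spots (median 2.68) and not from the first ones (median 0.00), and medians of 0.15, -0.09 and -0.07 on the other arrays. There lay 22 of the 37 higher BSG calls. *Gng2*, a G protein subunit gene, is an example, with 2.23 and 0.22 in BSG and -0.16 and -0.05 in GSG.

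With the median of its group subtracted from each spot on every array, an alternative chosen after these values were seen, 18 oligonucleotides passed in BSG (0.221%), 8 higher and 10 lower, and 17 of them were among the 54. Of the 22 at the shared place 0 remained. In the mean of the 4 arrays 13 passed (0.16%), 10 of which were among the 12, and the 8 named genes all remained. *Gadd45g* then had a mean of 1.38 (limma, adjusted p = 8.07e-05), and *Per1* one of 1.26 (limma, adjusted p = 0.00138). *Il15* also passed, with 0.89 and 1.22 in BSG and 0.50 and 0.76 in GSG (mean 0.84, limma, adjusted p = 0.00893). With the closed loop and a dye term besides, 7 passed (0.0861%), among them *Gadd45g*, *Rsrp1*, *Per1*, *Alx4*, *Dsg1a* and *Il15*. The arrangement of the spots on the slides is not given in the sources used here.

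**Figure D5:**
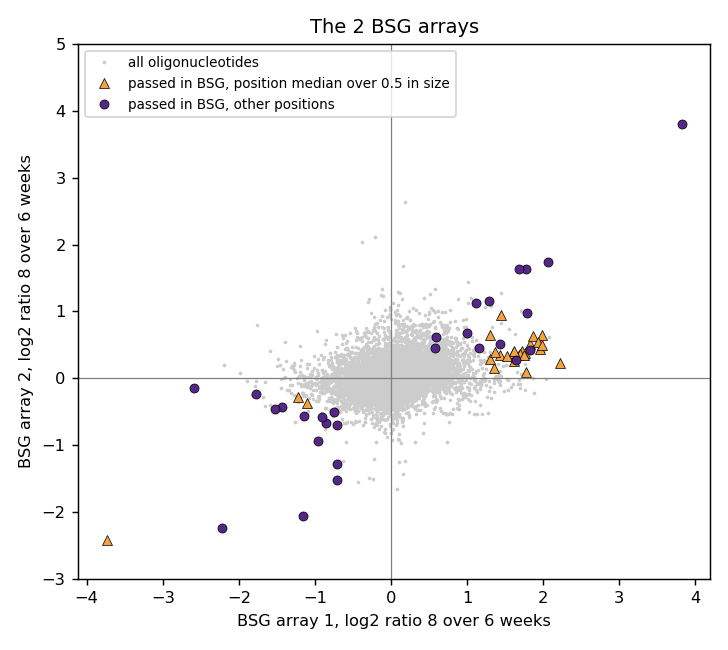
Log2 ratio of 8 over 6 weeks on BSG array 1 (x axis) and BSG array 2 (y axis) for 8129 oligonucleotides (grey points). Each of the 2 spots of a BSG call has its own group of 19 spots. Triangles mark BSG calls where the 2 group medians, averaged, were over 0.5 in size on BSG array 1, and circles the other BSG calls. Of the 37 higher calls 23 were triangles, most of them high on BSG array 1 alone, and the point at 3.82 and 3.81 is *Xist*.

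Among the BSG calls that also passed with the medians of the groups removed were *Per2*, *Per1*, *Gadd45g*, *Tsc22d3* and *Alx4* with higher values, and *Dsg1a*, *Scd1*, *Crygd* and *Nfat5* with lower values. *Crygd*, a lens crystallin gene, had -0.71 and -1.53 in BSG and -0.05 and 0.19 in GSG. Its spots on BSG array 2 were -2.98 and -0.07, and those of *Dsg1a* there were -4.14 and 0.02. Removing the median of a group does not correct a single outlying spot. The BSG mean of *Crygd* was -1.12 ± 0.18 (limma, adjusted p = 0.00349). *Nfat5*, the transcription factor of the osmotic response, had -0.96 and -0.94 in BSG (limma, adjusted p = 0.0178), but a mean of -0.57 over all 36 arrays and a closed-loop estimate of -0.23 in BSG, and its other 2 oligonucleotides had BSG means of -0.27 and 0.66.

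*Cebpb* and *Sin3a* were called in BSG but not with the medians of the groups removed, although their BSG means stayed at 1.28 and 0.55. *Cebpb*, a leucine zipper transcription factor of inflammation and fat cell formation, had 1.28 and 1.16 in BSG and 0.45 and 0.01 in GSG (BSG mean 1.22 ± 0.28, limma, adjusted p = 0.0382, or 0.0654 with the medians removed). *Sin3a*, the scaffold of a corepressor complex, had 0.59 and 0.61 in BSG and 0.02 and -0.15 in GSG (BSG mean 0.60, limma, adjusted p = 0.0178, or 0.0765 with the medians removed). Both were high on both BSG arrays. *Nfyb*, a subunit of the CCAAT-binding factor, had 1.98 and 0.64 in BSG and 0.76 and 0.07 in GSG, and *Hcfc1*, a transcriptional coregulator gene, 1.77 and 0.09 in BSG and -0.04 and -0.13 in GSG. With the medians removed, the BSG mean of *Nfyb* went from 1.31 to 0.34 and that of *Hcfc1* from 0.93 to -0.04 (limma, adjusted p = 0.668 and 0.95). *Dynlt1b*, a dynein light chain gene, had -2.60 on BSG array 1 and between -0.17 and -0.14 on the other arrays.

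*Xist*, the non-coding RNA that is made from the inactive X chromosome of females, was chosen after its values were seen. It had 3.82 and 3.81 on the BSG arrays and -0.09 and -0.23 on the GSG arrays, so that both 8-week-old BSG mice had far higher levels than the 6-week-old ones. The BSG mean was 3.81 ± 0.88 (limma, adjusted p = 0.0382, 0.0573 in the closed-loop model with a dye term and 0.0814 with the medians of the groups removed). For 6 over 4 weeks *Xist* had -0.33 and -2.73 in BSG, and for 10 over 8 weeks -2.68 and 0.16. In GSG loop 2 it had 3.66 for 6 over 4 weeks and -2.70 for 10 over 8 weeks. The 7 oligonucleotides of Y-linked genes lay between -0.42 and 0.61 on the BSG arrays and between -0.30 and 1.10 on the GSG arrays. Without intensities, Y-linked oligonucleotides near background cannot be told from unchanged ones. Of X-linked genes, *Ddx3x* had 1.01 and 1.13 in BSG and 0.64 and 0.13 in GSG. *Kdm5c*, *Kdm6a* and *Eif2s3x* lay between -0.15 and 0.44 in BSG. In BSG, whatever differs between mice with high and low *Xist* cannot be told apart from age. This touches each BSG value above, those of *Per2*, *Cebpb* and *Crygd* included, and through the BSG arrays each mean of the 4 arrays.

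The 6 genes with the smallest p for the difference between the strains did not pass, *Crygd* among them (limma, adjusted p = 0.149). *Cacng2*, a calcium channel and AMPA receptor subunit gene, had -0.82 and -0.31 in BSG and 0.69 and 0.76 in GSG (limma, adjusted p = 0.0527). *Tssk3*, a testis kinase gene, had -0.78 and -0.16 in BSG and 0.58 and 0.80 in GSG (limma, adjusted p = 0.0852), and *Oc90*, an inner ear matrix gene, -0.32 and -0.10 in BSG and 0.54 and 0.87 in GSG (limma, adjusted p = 0.164). In these 3 genes the strains did not overlap and had opposite signs, but their duplicate spots on both GSG arrays were 1.58 to 1.94 apart. With the medians of their groups of spots removed, *Oc90* had 0.24 and -0.11 in BSG and 0.05 and 0.20 in GSG, so that the strains overlapped. *Cacng2* then had -0.26 and -0.32 in BSG and 0.19 and 0.09 in GSG, and *Tssk3* -0.43 and -0.11 in BSG and 0.56 and 0.22 in GSG, with adjusted p of 0.999 and 0.88 for the strain difference (limma). *Dsg1a* had a strain difference of -1.40 (limma, adjusted p = 0.0852, or 0.0345 with the medians of the groups removed). *Hebp2*, a haem-binding protein gene, had 1.70 and 0.37 in BSG and -0.24 and -0.51 in GSG (limma, adjusted p = 0.173), and its spots on BSG array 1 were -0.20 and 3.61.

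In GSG, *Gadd45g* had a mean of 1.05 ± 0.23 that did not pass (limma, adjusted p = 0.119), although both arrays were high. Some large single values in GSG rested on 1 spot. *Ap4s1*, an adaptor complex subunit gene, had 0.86 and 0.41 in BSG and 4.46 and 0.55 in GSG, with spots of 1.26 and 7.67 on GSG array 1. *Aldh3a2*, a fatty aldehyde dehydrogenase gene, had -0.46 and -0.22 in BSG and -6.22 and -0.27 in GSG, with spots of -1.31 and -11.13 there, and *Plce1*, a phospholipase C gene, had -2.67 on that array and 0.01 on the other GSG array. *Adam12*, a metalloprotease gene of regenerating muscle, was lower on both GSG arrays, with -0.42 and -0.67 against -0.13 and -0.06 in BSG.

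Inflammation, the part of the dystrophy that the study's named genes trace, showed no call. Of the 12 inflammation genes measured, a list slightly longer than the study's own, 0 were called, beside 0.148% of all oligonucleotides. At an unadjusted p under 0.05, 1 was higher (8.33%, against 17.6% of all oligonucleotides) and 0 in the closed-loop model (against 5.35%). The medians were 0.23 and 0.06. By array the median lay at 0.16 on both BSG arrays, at 0.81 on GSG array 1 and at -0.09 on GSG array 2, so that GSG array 1 was the high one. *Lgals3*, which encodes galectin-3 of macrophages, had 0.27 and 0.53 in BSG and 1.74 and -0.14 in GSG. *Mpeg1*, the macrophage perforin gene, had -0.10 and 0.69 in BSG and 1.66 and -0.11 in GSG, and *Lyz1*, a lysozyme gene, 0.23 and 0.76 in BSG and 1.85 and -0.10 in GSG. *S100a4*, a calcium-binding protein gene, had 0.75 and 0.70 in BSG and 1.07 and 0.05 in GSG. These 4 genes shared the order of the GSG arrays, with GSG array 1 high and GSG array 2 near 0. *Ccl6*, *Ccl9*, *Sirpa*, *Laptm5* and *Clec7a* were also higher on GSG array 1 than on GSG array 2. The rest of the list was not. On GSG arrays 1 and 2, *Cd74* had -0.02 and 0.29, *Ccl8* -0.27 and 0.25, and *Lyz2* -0.10 and -0.08.

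Other cell types were followed through lists of markers. Of 28 macrophage genes 0 were called and 0 had an unadjusted p under 0.05, with array medians of -0.11 and 0.07 in BSG and 0.45 and -0.09 in GSG. Lists of T and B cells (15 genes), endothelium (29), Schwann cells and nerve (20) and erythroid cells (19) also had 0 calls, beside a share of 0.148% called among all oligonucleotides. At an unadjusted p under 0.05, 3 T and B cell genes (20.0%) and 3 erythroid genes (15.8%) were lower and 0 higher. For endothelium 1 gene was higher and 2 were lower (10.3%), and 0 Schwann cell genes passed. The share of all oligonucleotides at that p, in either direction, was 17.6%. Of 22 interferon response genes 0 were called, and 4 were higher and 0 lower at an unadjusted p under 0.05 (18.2%, against 17.6% of all oligonucleotides), with 2 higher in the closed-loop model (9.09%, against 5.35%). *Isg15*, a ubiquitin-like protein gene that interferon induces, had 0.38 and 0.24 in BSG and 0.62 and 0.60 in GSG, all above 0 (mean 0.46, limma, adjusted p = 0.234).

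Of 20 genes taken from those the study discusses by name, chosen as a list for this comparison, all 20 were measured and 2 were called (*Per1* and *Tcap*). Among all oligonucleotides 0.148% were called. At an unadjusted p under 0.05 there were 5 of the 20, against 17.6% of all oligonucleotides, and 4 in the closed-loop model, against 5.35%. The study's own test asked whether time courses differ between strains, and with quadratic curves it selected neither *Per1* nor *Tcap*. *Meg3*, a maternally expressed non-coding RNA, had 1.56 and 0.74 in BSG and 0.33 and 0.44 in GSG, with the BSG values above the GSG values (mean 0.77, limma, adjusted p = 0.13). *Dlk1*, the paternally expressed gene of the same imprinted domain, had 0.06 and 0.09 in BSG and -0.20 and -0.52 in GSG. *Myoz2*, a Z-disc gene of slow fibres, had -0.10 and 1.23 in BSG and 0.86 and 0.01 in GSG, so that the arrays of each strain disagreed.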

How the data were processed

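Amplified RNA of quadriceps muscle carried Cy3 or Cy5 on 36 arrays, on which each oligonucleotide was printed as 2 spots. Scanning was done with GenePix. Log ratios per spot were deposited after the smida R package (all.norm) had been used by the authors against spatial, dye and between-array effects, and they are taken here as log2 of Cy5 over Cy3. No intensities were used here, so the number of arrays limits the precision. The 16416 spots gave 8129 oligonucleotides, with the 80 pairs of *Gapdh* spots averaged to 1, and 6752 had 1 gene symbol. No filter was applied. Means of 18 groups of 2 arrays were fitted with limma (version 3.58.1, R 4.3.3, lmFit and eBayes), and 4 contrasts (the mean of the 4 arrays, BSG, GSG and their difference) were adjusted by Benjamini-Hochberg over all oligonucleotides. The median standard error was 0.134 for the mean of 4 arrays and 0.19 for a strain. The fits were tested on simulated data. Figures were drawn with Python 3.11.15 and matplotlib 3.10.9.

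The gene lists, members and settings were chosen with earlier results of these data known. Genes are named by rule: up to 12 per direction that passed with the same sign on 4 arrays, filled by p, up to 4 per list, 20 of the genes the study discusses, up to 6 for the strain difference and up to 4 per strain and direction. *Xist*, *Il15*, *Sin3a* and further list and BSG members were named after their values were seen. Of several oligonucleotides of a gene, that with the highest mean size of the log ratio over the arrays stands for it.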

Additional observations from a re-analysis of the deposited data

Results flagged for a closer look

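In 5 of 49 genes tested, 1 of the 4 arrays lay far from the other 3 relative to their range, by Dixon's criterion for 4 samples, which chance meets in about 1 of 20 groups. Ratios of both strains were treated as 1 group for this purpose. *Klf15* had 1.98 on GSG array 1, against -0.09 to 0.01 on the others. *Ap4s1* had 4.46 on GSG array 1, against 0.41 to 0.86. *Clock* had -0.074 on GSG array 1, against 0.38 to 0.47. *Bhlhe40* had 0.22 on GSG array 2, against 0.70 to 0.79. *Neb* had 0.35 on BSG array 2, against 0.82 to 0.87. In 3 of the 5 genes the distant array was GSG array 1, whose duplicate spots correlated at 0.252.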

How the results depend on the processing

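The number of calls depended on the processing. In the mean of the 4 arrays (12 calls) it was 0 with the 4 arrays alone (limma, 1245 at an unadjusted p under 0.05), 2 in the closed-loop model, 6 with a dye term, 23 with median-centred arrays, 382 with both spots entered by duplicateCorrelation and 3 without the arrays of discordant spots. It ranged from 4 to 334 with 1 array left out: 11 without BSG array 1, 334 without BSG array 2, 4 without GSG array 1 and 138 without GSG array 2. In BSG (54 calls) the number was 1 with the 4 arrays alone, 9 in the closed-loop model, 16 with a dye term, 107 with first spots alone, 90 with second spots alone, 91 with both spots by duplicateCorrelation, 5 without discordant arrays and 16 with oligonucleotides of 1 symbol, and from 9 (without BSG array 1) to 327 (without BSG array 2) with 1 array left out. In GSG (0 calls) it was 1 with scaled arrays, 1 with first spots, 22 with second spots, 84 by duplicateCorrelation and from 0 to 131 (without GSG array 2) with 1 array left out. For BSG minus GSG (0 calls) it was 1 each with the 4 arrays alone, median centring, second spots and 1 symbol, 4 by duplicateCorrelation, and from 0 to 160 with 1 array left out (93 without GSG array 2, 160 without BSG array 2). The cause was not tested; where an array is left out, the lone array of the strain is assumed to vary like the others.

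Chosen after seeing the data, leaving out both first arrays gave 4 calls in the mean, 10 in BSG and 0 in GSG. Removing the medians of the spot groups gave 13, 18 and 1, with 1 for the strain difference, and with the closed loop and a dye term 7, 6, 1 and 0. A random block for the loop, array weights and no moderation kept each count within 1.5 times. Over 66 genes and 20 alternatives, 1110 values kept direction and call, 146 lost and 56 gained a call, and 8 turned sign: *Klf15* (0.973 without GSG array 2) to -0.087 without discordant arrays and without both first arrays and to -0.063 without GSG array 1, *Plce1* in GSG (-2.667 without GSG array 2) to 0.006 under the same 3 settings, *Galnt4* to 0.01 with the medians removed, closed loop and dye term, and *Hcfc1* in BSG to -0.044 with the medians removed. Of the 8 named calls, 8 stayed called without BSG array 2 or GSG array 2, 4 without BSG array 1 (*Gadd45g*, *Rsrp1*, *Per1* and *Dsg1a*) and 2 without GSG array 1 (*Gadd45g* and *Dsg1a*). No paired analysis was possible because each array is itself 1 pair of mice and the replicate numbers follow the order of the arrays. Duplicate spots over 1 apart on any of the 4 arrays occurred in 17.6% of all oligonucleotides, in 3 of the 12 calls and in 38 of the 54 BSG calls.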
